A study of Mus musculus with 6 samples.

Results

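The genes of the proteasome were read in 6 RNA-seq libraries of C2C12 myotubes, the fused and differentiated form of the C2C12 mouse myoblast line. Members were the rows of the gene count table whose symbol is Psm, a letter from a to g, a number and at most 1 further letter. There were 49 of them among 46983 genes: 8 core alpha genes (Psma), 11 core beta genes (Psmb), 6 ATPase genes (Psmc), 14 other genes of the regulatory particle (Psmd) and 10 genes of activators, an inhibitor and assembly chaperones (5 Psme, 1 Psmf, 4 Psmg). Of these, 45 passed the filter on low counts, as did 14450 genes in all. Psma8, Psmb8, Psmb9 and Psmb11 did not pass and are given by their counts.

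The myotubes, labelled wild type, received corticosterone, the main glucocorticoid of rodents, at 1e-07 M or ethanol vehicle at 1 µL/mL for 24 h. Each treatment has 3 libraries of this single line, labelled as biological replicates. They are called Cort 1, Cort 2 and Cort 3 (labelled corticosterone replicates 1, 2 and 3) and Veh 1, Veh 2 and Veh 3 (labelled vehicle replicates 1, 2 and 3). The comparison asked which genes differ between the treatments. Total counts ran from 23877583 to 29928653 per library.

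The labels of 2 libraries are in doubt, and every result by label rests on them. The glucocorticoid-induced gene Fkbp5 stood at 151, 36.9 and 135 CPM (counts scaled to library size) in Cort 1, 2 and 3 and at 36.9, 177 and 35.4 CPM in Veh 1, 2 and 3. The library labelled Cort 2 thus had the low level and the library labelled Veh 2 the high level, and Tsc22d3 and Per1 showed the same arrangement. Values are therefore given by label, and the medians of all members and of each gene class also with both libraries numbered 2 left out. All 6 markers of myotubes (Myog, Mymk, Myh3, Ckm, Acta1 and Tnnt3) were above the counting floor of 3 counts in every library. Markers of other cells were low. Ptprc and Adgre1 (macrophages) and Adipoq (adipocytes) had 0 counts in all 6. Cd68 (macrophages) lay above the floor in every library, with 24 to 58 counts. Fabp4 (adipocytes) had 15, 3 and 28 counts in Cort 1, 2 and 3 and 0, 29 and 1 in Veh 1, 2 and 3. The summed markers reached at most 2.03 CPM for macrophages, 1.10 for adipocytes and 0.384 for endothelial cells.

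The proteasome is the protease that degrades proteins tagged with ubiquitin. Its barrel-shaped core consists of outer rings of alpha subunits, which gate the entrance, and inner rings of beta subunits, of which Psmb5, Psmb6 and Psmb7 encode the catalytic ones. The regulatory particle caps the core: its base holds a ring of ATPases that unfold substrates, and its lid removes ubiquitin. In skeletal muscle, the ubiquitin-proteasome pathway is known for the breakdown of myofibrillar proteins during wasting, which glucocorticoids can provoke. Transcription of the subunit genes is known to be raised together by Nfe2l1 (also called Nrf1), which binds antioxidant response elements.

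Promoter sequences are shown first because Nfe2l1 acts through a short element. The part of Nfe2l1 in the values of the members was not tested. RefSeq promoter windows (GRCm38.p6, 250 bases before to 50 after the annotated start) were found for 41 of the 49 members, in 44 windows. The core of the antioxidant response element, TGACNNNGC on either strand, was in 6 of the 44 windows (13.6%), against 12.4% of all 32851 windows. The member windows belonged to Psmb5, Psmb6, Psmc6, Psmd9, Psmd12 and Psme4. In the following stretches the capitals mark that core in Psmd12, Psmb6 and Psmb5, and the letters CTTCCGG, the opposite strand of CCGGAAG, in Psmd2. Psmd12 had the smallest p-value of all members, Psmb5 and Psmb6 are catalytic genes, and Psmd2 encodes a scaffold of the base.
Psmd12, chr11:107479278-107479357, plus strand: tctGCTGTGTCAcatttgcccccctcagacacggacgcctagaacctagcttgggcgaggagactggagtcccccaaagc
Psmb6, chr11:70525277-70525356, plus strand: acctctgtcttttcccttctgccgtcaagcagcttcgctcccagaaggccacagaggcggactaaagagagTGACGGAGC
Psmb5, chr14:54617998-54618077, minus strand: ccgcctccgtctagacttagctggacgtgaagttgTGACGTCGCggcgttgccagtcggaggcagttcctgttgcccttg
Psmd2, chr16:20651572-20651651, plus strand: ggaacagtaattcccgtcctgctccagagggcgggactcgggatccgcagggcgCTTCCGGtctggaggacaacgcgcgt

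The first base of the element lay 247 bases before the RefSeq start in Psmd12, 9 in Psmb6 and 47 in Psmb5, and that of CTTCCGG lay 26 before the start in Psmd2. CCGGAAG, a site of ETS-family factors, was in 15 of the 44 member windows (34.1%), from 14 genes, against 8.86% of all windows. GGGCGG, the GC box bound by Sp1, was in 24 member windows (54.5%) against 35.7% of all, and CCAAT was in 14 (31.8%) against 37.4%. The full palindromic glucocorticoid response element was in 0 member windows and in 3 of all windows (0.00913%). Its shorter core ACANNNTGT, which lies within the full palindrome, was in 1 window, that of Psme2b (2.27%), against 6.85% of all windows. In all, 13 motifs were searched, chosen with the expression values known, and windows of all genes include many that myotubes do not use.

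Levels were compared between genes only per length, as CPM per kilobase of the longest principal transcript in GENCODE M21. Psmc3, an ATPase of the base, had the highest mean over the 6 libraries, at 264 CPM per kb with a range of 244 to 279, which overlapped no other member's range. Psmb6 followed at 193 (189 to 202), then Psmb3 and Psmc5, both at 179, Psmc1 at 171 and Psmd2 at 169.7. From Psmb6 to Psmd2 each range overlapped the next, so these neighbours could not be ordered. The 7 core alpha genes that passed the filter ran from 40.5 (Psma3) to 147 (Psma7) CPM per kb. The lengths used were 2846 bases for Psma3 and 914 for Psma7, so much of this span comes from the lengths. Psmb5, the gene of the chymotrypsin-like catalytic subunit, stood at 47.8 CPM per kb (42.8 to 50.3), below the whole range of Psmb6 and of Psmb7, the other catalytic genes (Psmb7 90.2 to 109). The chaperones that leave the finished particle were low: Psmd5 stood at 14.2, Psmd9 at 15.3 and Psmd10 at 30.2 CPM per kb, and Psmg1 to Psmg4 ran from 5.15 (Psmg3) to 28.2 (Psmg2). These values depend on which transcript length is used and on reads lost to near-identical copies or to overlapping genes. Psmb5 shares 109 of its 899 exon bases with Mir686 on the same strand, and Psmc3 shares 215 with Slc39a13 on the opposite strand.

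**Figure D1:**
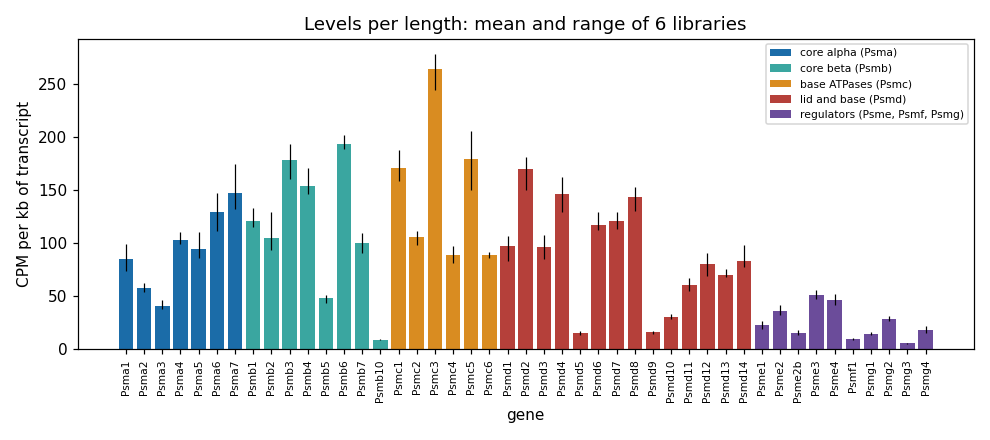
Level per length of the 45 members that passed the count filter (CPM per kilobase of principal transcript, linear axis); bars are means and whiskers the lowest and highest of the 6 libraries. Psmc3 stands highest at 264, and Psmf1 (8.86), Psmb10 (8.40) and Psmg3 (5.15) stand lowest.

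The inducible genes Psmb8 and Psmb9 were nearly absent. Interferon-inducible Psmb8, Psmb9 and Psmb10 replace Psmb5, Psmb6 and Psmb7 in the immunoproteasome, which is specialised for antigen presentation. Psmb8 had counts of 6, 9 and 7 in Cort 1, 2 and 3 and 9, 3 and 3 in Veh 1, 2 and 3. Psmb9 had 1, 10 and 4 against 2, 11 and 1. These counts of at most 11 did not pass the filter, so the genes were not tested, and the ranges of the groups overlapped for both. Psmb10 was the exception among the inducible genes, at 10.8, 10.9 and 12.02 CPM in Cort 1, 2 and 3 and 10.8, 9.96 and 11.7 CPM in Veh 1, 2 and 3. At 8.40 CPM per kb (7.60 to 9.17) it stayed far below its constitutive counterpart Psmb7. Exons of Psmb9 overlap those of Tap1 and exons of Psmb8 those of an antisense gene, so even these few reads may belong elsewhere. Psma8, of the testis proteasome, had 0 counts in every library, and Psmb11, of the thymus proteasome, had 1 count, in Veh 2.

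By label, no member passed the test. The test was edgeR's quasi-likelihood F-test, two-sided, with Benjamini-Hochberg adjustment over the 14450 genes and a threshold of 0.05. It called 0 of 45 members and 0 genes in all (0%). DESeq2 and limma-voom also called 0 of 45 members, and DESeq2 called 0.955% of all genes. At an unadjusted edgeR p under 0.05 there were 4 members (8.89%), 3 higher with corticosterone and 1 lower, against 11.8% of all genes, 5.55% higher and 6.26% lower, so the members held no more small p-values than genes at large. The log2 difference, corticosterone minus vehicle, was positive for 32 of the 45 (71.1%) against 50.8% of all genes. Its median was 0.07 over the members and 0.004 over all genes. The members' summed CPM was 6605 ± 302 (SD, n = 3) with corticosterone and 6185 ± 149.6 (SD, n = 3) with vehicle, and each of Cort 1, 2 and 3 (6566, 6324 and 6924) lay above each of Veh 1, 2 and 3 (6014, 6249 and 6292). The margin between Cort 2 and Veh 3 was small. Without Cort 3 the median over the members was 0.01, with 25 of 45 positive, without Veh 1 it was 0.04 and without Veh 3 it was 0.04, and with both libraries numbered 2 left out it was 0.11, with 38 of 45 positive and 0 called.

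**Figure D2:**
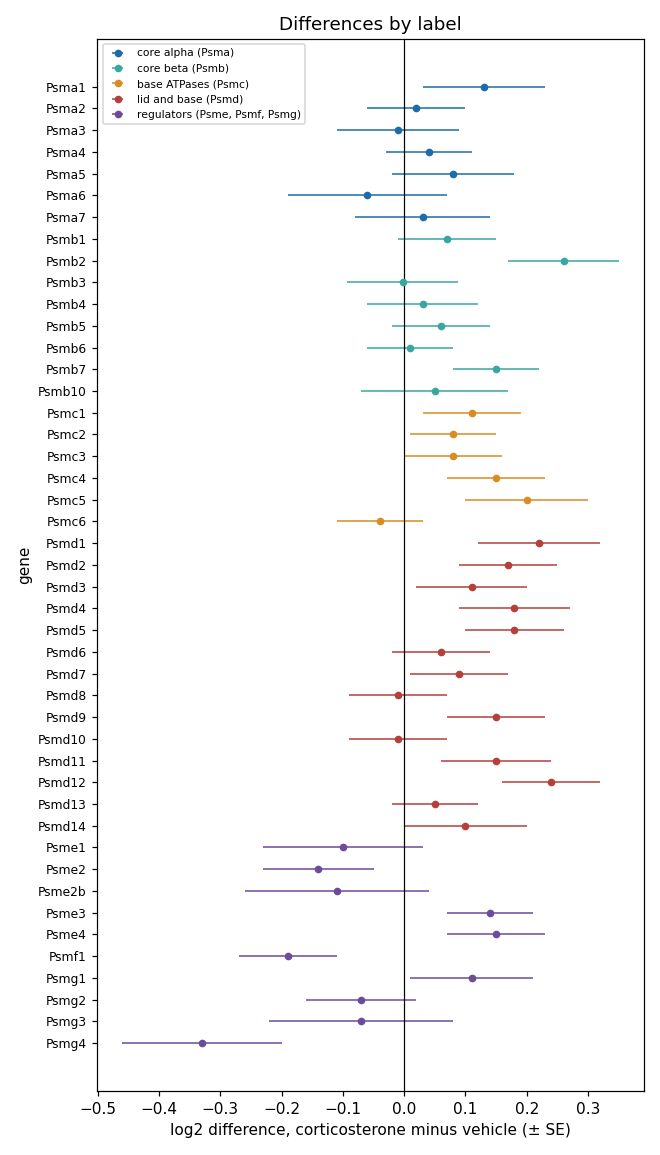
Log2 difference between the 3 libraries labelled corticosterone and the 3 labelled vehicle for each of the 45 members (points) with its standard error (bars), coloured by gene class. Most Psmc and Psmd genes lie right of 0, the Psma genes lie near 0, and most of the Psme, Psmf and Psmg genes lie left; none passed the test.

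With all 6 libraries, the alpha ring genes had the class median nearest 0, and the difference between classes was not tested. The median log2 difference of the 7 genes tested was 0.03, with 5 positive and 2 negative, from -0.06 (Psma6) to 0.13 (Psma1), and none separated the labels. Psma1 stood at 97.3, 104 and 119 CPM in Cort 1, 2 and 3 and at 99.1, 105 and 88.2 CPM in Veh 1, 2 and 3. The groups overlapped, with Cort 3 highest and Veh 3 lowest, and the difference was 0.13 ± 0.10 (SE, edgeR adjusted p = 0.626). Psma5 stood at 112, 113 and 137 CPM against 113, 122 and 106 CPM, again with Cort 3 highest and Veh 3 lowest (0.08 ± 0.10, edgeR adjusted p = 0.763). Cort 3 was the highest library for 6 of the 7 genes, and Veh 2 for the remaining one, Psma6. The class median turned to -0.03 without Cort 3, with 1 of 7 differences positive, and it was 0.0064 without Veh 3 and 0.02 without Veh 1. It was 0.07 without Cort 1 and without Cort 2, with 6 of 7 positive in each, and 0.05 without Veh 2, with 7 of 7. With both libraries numbered 2 left out it was 0.09, with 7 of 7 positive, Psma1 at 0.21 and Psma5 at 0.18.

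Among the core beta genes, 7 of 8 differences were positive, with a median of 0.06, and Psmb2 and Psmb7 separated the labels. Psmb2, a non-catalytic beta subunit gene (ENSMUSG00000028837, on chromosome 4 of GRCm38 from 126677630 to 126709714), was measured at 90.4, 91.8 and 111 CPM in Cort 1, 2 and 3 and at 80.3, 79.6 and 84.3 CPM in Veh 1, 2 and 3. The groups did not overlap, and Cort 3 stood apart from Cort 1 and Cort 2. The difference was 0.26 ± 0.09 (SE, edgeR adjusted p = 0.384), a 1.20-fold higher level. Psmb7, the gene of the trypsin-like catalytic subunit (ENSMUSG00000026750, chromosome 2, 38588036 to 38644087), stood at 121, 118 and 127 CPM against 105, 113 and 110.5 CPM, a difference of 0.15 ± 0.07 (SE, edgeR adjusted p = 0.436). Its exons share 405 bases with Nek6 on the opposite strand, and the counting is not stated to use strand. The other catalytic genes overlapped between the labels. Psmb5 (ENSMUSG00000022193, chromosome 14, 54614119 to 54618022) stood at 44.6, 42.9 and 44.4 CPM against 42.4, 45.2 and 38.5 CPM (0.06 ± 0.08, edgeR adjusted p = 0.762). Psmb6 (ENSMUSG00000018286, chromosome 11, 70525367 to 70527858), the gene of the caspase-like subunit, was the steadiest of the 3, at 153, 151 and 161 CPM against 153, 156 and 151 CPM (0.01 ± 0.07, edgeR adjusted p = 0.94). Both of these, as well as Psmb10 (0.05 ± 0.12), turned slightly negative when single libraries were left out. The median of the beta genes was 0.0073 without Cort 3 and 0.02 without Veh 3. With both libraries numbered 2 left out it was 0.10, with 8 of 8 positive, and Psmb5 was at 0.14.

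The ATPase genes of the base had 5 of 6 differences positive, with a median of 0.10. Psmc5 (ENSMUSG00000020708, chromosome 11, 106256154 to 106263120) stood at 249.9, 234 and 271 CPM in Cort 1, 2 and 3 and at 198, 228 and 232 CPM in Veh 1, 2 and 3. The groups did not overlap, although Cort 2 and Veh 3 were almost equal, and the difference was 0.20 ± 0.10 (SE, edgeR adjusted p = 0.452). Psmc4 stood at 139.9, 122 and 139.7 CPM against 116, 121 and 125 CPM (0.15 ± 0.08, edgeR adjusted p = 0.506). Cort 1 and Cort 3 were higher there and Cort 2 lay among the libraries labelled vehicle. Psmc1 also separated the labels, with a difference of 0.11 ± 0.08, and Psmc6 was the only one with a negative difference, at -0.04 ± 0.07. The class median was 0.06 without Veh 1 and 0.13, with 5 of 6 positive, when both libraries numbered 2 were left out.

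The Psmd genes had the highest class median, 0.13, with 12 of 14 differences positive, and no leave-out of a single library took it under 0.10. With both libraries numbered 2 left out it was 0.17, with 14 of 14 positive. Psmd2, a scaffold of the base that binds ubiquitin receptors (ENSMUSG00000006998, chromosome 16, 20651652 to 20663414), stood at 530.1, 532 and 536 CPM in Cort 1, 2 and 3 and at 444, 474 and 499 CPM in Veh 1, 2 and 3. The groups did not overlap, the 3 libraries labelled corticosterone were nearly equal, and the difference was 0.17 ± 0.08 (SE, edgeR adjusted p = 0.436). Psmd12, a lid subunit gene (ENSMUSG00000020720, chromosome 11, 107479484 to 107504362), stood at 164, 159 and 171 CPM against 130.0, 138 and 149.9 CPM. These did not overlap either, and the difference was 0.24 ± 0.08 (SE, edgeR adjusted p = 0.364, DESeq2 adjusted p = 0.234), a 1.18-fold higher level. Psmd5, whose product is an assembly chaperone of the base, stood at 64.3, 63.8 and 71.1 CPM against 56.2, 59.9 and 59.6 CPM (0.18 ± 0.08, edgeR adjusted p = 0.416). Psmd9, another chaperone of the base, also separated the labels, with a difference of 0.15 ± 0.08. Psmd1, the other large scaffold of the base, differed by 0.22 ± 0.10, but Veh 3 (316 CPM) lay just above Cort 2 (315 CPM). Exons of Psmd1 overlap those of Htr2b and Gm21972, and exons of Psmd9 share 1849 bases with the antisense gene Gm26745, so reads may be shared there. Psmd8 and Psmd10, the latter the oncoprotein gankyrin, had differences of -0.01 ± 0.08 and -0.0093 ± 0.08.

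The regulators were divided. Psme1 and Psme2 encode the interferon-inducible activator PA28 alpha and beta, Psme3 the nuclear activator PA28 gamma and Psme4 the activator PA200. Psme3 (chromosome 11, 101316213 to 101323537) stood at 137, 136 and 148 CPM in Cort 1, 2 and 3 and at 125, 125 and 134 CPM in Veh 1, 2 and 3. The groups did not overlap (0.14 ± 0.07, edgeR adjusted p = 0.483). Psme4 stood at 335, 317 and 289.6 CPM against 269, 283 and 294 CPM, with Cort 3 below Veh 3 (0.15 ± 0.08, edgeR adjusted p = 0.501). It was one of 3 members for which Cort 3 was below Cort 2, along with Psme1 and Psme2. Psme1 gave 20.7, 27.3 and 23.0 CPM against 28.7, 24.0 and 23.4 CPM (-0.10 ± 0.13, edgeR adjusted p = 0.778), lowest in Cort 1 and highest in Veh 1. Psme2 gave 30.4, 33.4 and 33.3 CPM against 39.4, 35.2 and 32.5 CPM (-0.14 ± 0.09, edgeR adjusted p = 0.57), with the same lowest and highest libraries. Psme2b, a copy of Psme2, differed by -0.11 ± 0.15. Reads of Psme2 and Psme2b may be shared or lost, so both values are uncertain.

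Psmf1, which encodes the proteasome inhibitor PI31 (ENSMUSG00000032869, chromosome 2, 151715812 to 151744186), was the only member lower without overlap (2 were with RLE scaling). It stood at 32.2, 30.1 and 32.1 CPM in Cort 1, 2 and 3 and at 39.0, 35.5 and 33.5 CPM in Veh 1, 2 and 3, a difference of -0.19 ± 0.08 (SE, edgeR adjusted p = 0.427). Among the chaperones of core assembly, Psmg4 (ENSMUSG00000071451, chromosome 13, 34162964 to 34178173) had the most negative difference of all members. It stood at 8.17, 8.39 and 9.74 CPM against 11.9, 11.3 and 9.73 CPM. Cort 3 and Veh 3 were almost equal, so the groups just overlapped, and the difference was -0.33 ± 0.13 (SE, edgeR adjusted p = 0.411). Psmg1 stood at 15.1, 14.8 and 16.03 CPM against 14.9, 14.4 and 13.4 CPM (0.11 ± 0.10, edgeR adjusted p = 0.663), and Psmg2 and Psmg3 both differed by -0.07. Over the 10 regulators the median was -0.09, with 3 positive and 7 negative, and it was -0.05 without Cort 1 or without Veh 1 and -0.06 with both libraries numbered 2 left out. Their summed CPM had the opposite sign, at 624, 611 and 600.1 CPM in Cort 1, 2 and 3 against 575, 579 and 588 CPM in Veh 1, 2 and 3, since Psme3 and Psme4 make up most of it.

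In all, 9 of 45 members were higher without overlap by label, against 8.41% of all genes, and 1 (2.22%) was lower, against 8.19% (16.6% of all genes in both directions). The 9 were Psmb2, Psmb7, Psmc1, Psmc5, Psmd2, Psmd5, Psmd9, Psmd12 and Psme3. This count was 7 with upper-quartile scaling. The members share libraries and vary together, so they are not 45 independent observations.

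The libraries differed from each other in ways the labels do not give, and the gene classes did not share 1 order of libraries. Each gene's log2(CPM + 0.5) was set against its mean over the 6 libraries. The median over the alpha genes was then -0.07, -0.05 and 0.17 in Cort 1, 2 and 3 and -0.02, 0.05 and -0.10 in Veh 1, 2 and 3. Over the Psmd genes it was 0.09, -0.04 and 0.13 against -0.12, -0.05 and -0.01. Cort 3 was thus the highest library in both classes, whereas Cort 1 was high for the Psmd genes and below the mean for the alpha genes, and the lowest library was Veh 3 for the alpha genes and Veh 1 for the Psmd genes. The ATPase genes followed the Psmd order at both ends, with Cort 3 highest (0.10) and Veh 1 lowest (-0.11). The regulators had their highest median, 0.11, in Veh 1. Cort 3 was the highest library for 28 of the 45 members and the lowest for 0, while Veh 1 was the lowest for 15.

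**Figure D3:**
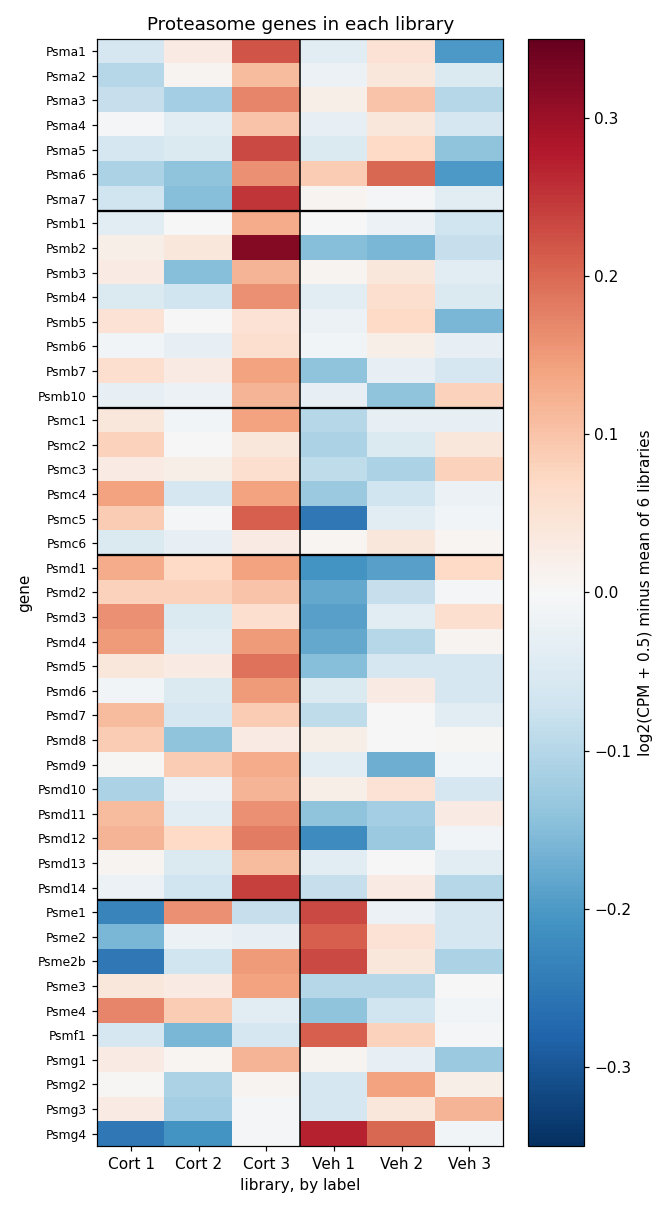
Log2(CPM + 0.5) of each of the 45 members minus its mean over the 6 libraries (colour, red above and blue below the mean), with libraries in columns and genes in rows; horizontal lines divide the gene classes and the vertical line the labels. Cort 3 is the highest library for 28 genes, and Veh 1 is low for most Psmc and Psmd genes and high for Psme1, Psme2, Psmf1 and Psmg4.

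**Figure D4:**
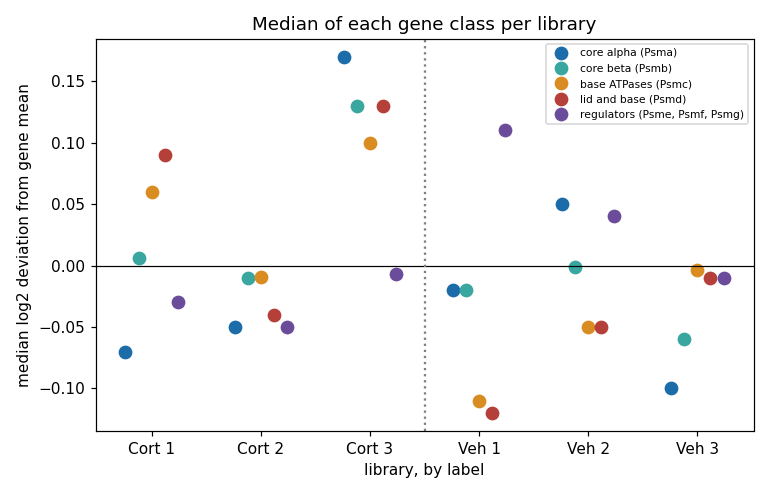
Median of those deviations over each gene class (points, coloured by class) in each library, on the log2 scale. The alpha genes are highest in Cort 3 (0.17) and lowest in Veh 3 (-0.10), the Psmd genes highest in Cort 3 (0.13) and lowest in Veh 1 (-0.12), and the regulators highest in Veh 1 (0.11).

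Pairs of alpha genes had a median Pearson correlation of 0.82 over the 6 libraries (21 pairs, all positive), and pairs of Psmd genes 0.60 (91 pairs, 90.1% positive). Between alpha genes and the Psmc and Psmd genes the median was 0.32 (140 pairs), and among the regulators it was -0.03 (45 pairs). Over all pairs of the 14450 genes it was -0.00043. The points are 6 libraries that share their scaling, so these correlations describe the libraries only.

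The summed myotube markers shared their highest and lowest libraries with the summed Psmd genes and the summed ATPase genes. The summed CPM of the 6 myotube markers was 10272, 9819 and 10507 in Cort 1, 2 and 3 and 7178, 8226 and 9960 in Veh 1, 2 and 3, and the summed CPM of the Psmd genes was 2660, 2500 and 2727 against 2291, 2397 and 2504. Both sums were highest in Cort 3, then Cort 1, and lowest in Veh 1, then Veh 2. So were the sum of the ATPase genes (1499.5, 1442 and 1555 against 1345, 1398 and 1471) and that of all members. This order was thus not particular to the Psmd genes, whereas the alpha and beta sums were lowest in Veh 3 (824 and 905). Acta1, the largest part of the marker sum at 3542 to 4811 CPM, was the only marker with this order of the marker sum at both ends. Mymk, Ckm and Tnnt3 were lowest in Veh 1, then Veh 2, but highest in Cort 1 (1108, 338 and 1810 CPM), then Cort 3 (1091, 319 and 1680 CPM). Myog was highest in Veh 3 (864 CPM), and Myh3 was highest in Cort 2 (1901 CPM) and lowest in Veh 2 (897 CPM). The sum of the 5 markers of proliferating myoblasts (Pax7, Myf5, Mki67, Top2a and Ccna2), all of them detected in every library, was 190.0 to 211 with corticosterone and 214 to 235 with vehicle. They did not lie one way: Mki67, Top2a and Ccna2, genes of dividing cells, differed by -0.29, -0.31 and -0.47, and Pax7 and Myf5, markers of muscle precursors, by 0.09 and 0.14. The part of either cell state in the proteasome values was not tested. In bulk RNA, more cells of a type and more RNA per cell cannot be told apart.

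The members were also read in the arrangement that Fkbp5 shows, Cort 1, Cort 3 and Veh 2 (high) against Cort 2, Veh 1 and Veh 3 (low). This is not a grouping by label, so values and counts are given with no test. All of the 8 members that did not overlap in this arrangement were higher in Cort 1, Cort 3 and Veh 2, which is 17.8% of 45 against 4.89% of all genes, and 0 were lower, against 4.74% (9.63% of all genes in both directions). They were Psma4, Psmb3, Psmb5, Psmb6, Psmd6, Psmd7, Psmd13 and Psmd14. Such a gene has Veh 2 above Cort 2 and Cort 1 above Veh 3, so it cannot also separate the labels. The margins were small. Psmd14, the deubiquitinase gene of the lid, stood at 125, 150.4 and 130.0 CPM in Cort 1, Cort 3 and Veh 2 and at 121, 120.2 and 119 CPM in Cort 2, Veh 1 and Veh 3. Psmd7, the partner of Psmd14 in the lid, stood at 204, 203 and 190.0 CPM against 182, 178 and 184 CPM. For Psmb6 the values were 153, 161 and 156 CPM against 151, 153 and 151 CPM.

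Each high library had a low one as its nearest neighbour over all genes. The 3 nearest pairs were Cort 1 with Veh 3, Cort 3 with Cort 2 and Veh 2 with Veh 1, at root mean square differences of 0.359, 0.399 and 0.362 in log2 CPM, where the next pair stood at 0.446. In Cort 1 over Veh 3, 32 of the 45 members were higher, with a median log2 ratio of 0.05. In Cort 3 over Cort 2, 42 were higher, with a median of 0.14. In Veh 2 over Veh 1, 32 were higher, with a median of 0.06. The medians over all genes were -0.0027, -0.0041 and 0.002. In all 3 pairs together, 26 members (57.8%) were higher in the high library, against 20.0% of all genes, and 2 (4.44%) were lower, against 20.5%. Those 26 included 11 of the 14 Psmd genes, 5 of 7 alpha genes, 5 of 8 beta genes and 4 of 6 ATPase genes, but 1 of the 10 regulators. The 2 lower ones were Psme1 and Psme2. Psme1 differed by -0.18, -0.25 and -0.26, whereas Psme2 was almost equal in Cort 3 and Cort 2 (-0.0036). Differences within a pair are of single libraries and have no replicate error of their own. Members without overlap in the arrangement are always higher in all 3 pairs, so they are among the 26 and the counts are not separate results. Here too the 45 members are not independent observations.

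**Figure D5:**
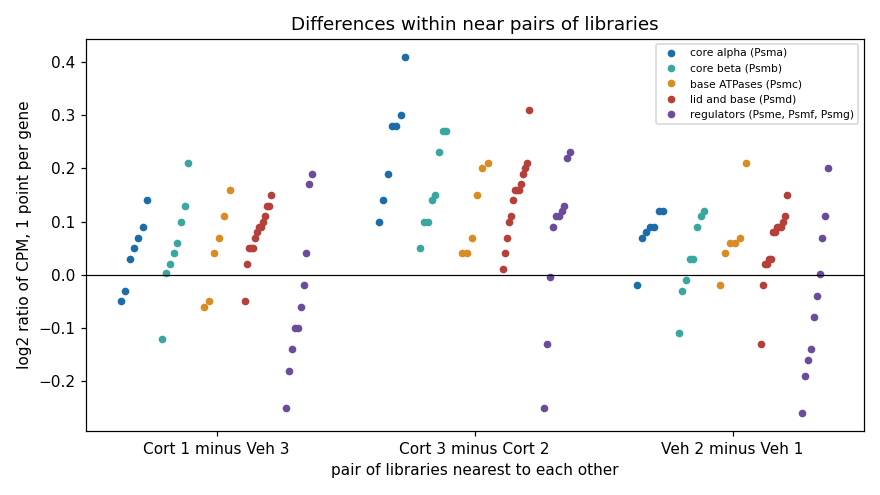
Log2 ratio of CPM between the libraries of each of the 3 nearest pairs, 1 point per member, coloured by gene class; in each pair the library with the higher Fkbp5 comes first. Of the 45 members, 32, 42 and 32 lie above 0, and Psme1 and Psme2 lie below 0 in all 3 pairs.

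Other genes of the pathway were read from lists, in which edgeR, DESeq2 and limma-voom called 0 genes. At an unadjusted edgeR p under 0.05 the lists held 2, 2, 1, 3 and 1 genes (18.2%, 20.0%, 16.7%, 27.3% and 8.33% of those tested), in the order given here, against 11.8% of all genes. Of 11 accessory and assembly genes outside the Psm names, 7 lay higher and 4 lower with corticosterone, with a median of 0.0071. Adrm1 encodes a ubiquitin receptor of the proteasome. Its CPM were 165, 178 and 182 in Cort 1, 2 and 3. In Veh 1, 2 and 3 they were 129.9, 136 and 155. The groups did not overlap, and its difference of 0.32 ± 0.09 (SE, edgeR adjusted p = 0.364) was above the highest of any Psm gene, 0.26 for Psmb2, and close in size to the -0.33 of Psmg4. Shfm1 (Sem1), a small lid subunit gene, went the other way, at 66.8, 59.8 and 66.6 CPM against 87.8, 79.4 and 70.1 CPM (-0.30 ± 0.10, edgeR adjusted p = 0.364). Pomp, the chaperone of core maturation, differed by 0.0071 ± 0.08.

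Genes of proteasome transcription were split evenly, with 5 of 10 higher and a median of 0.0041. Nfe2l1 itself stood at 1008, 998 and 907 CPM against 1025, 979.5 and 1034 CPM, lowest in Cort 3 (-0.06 ± 0.08, edgeR adjusted p = 0.787). These are mRNA levels, and the part of Nfe2l1 in the subunit values was not tested. Ddi2, the protease that activates the Nfe2l1 protein, stood at 103, 116 and 111 CPM against 85.7, 99.5 and 90.9 CPM (0.26 ± 0.08, edgeR adjusted p = 0.364). Nfe2l2 (Nrf2), a related factor of the antioxidant response, stood at 123, 121 and 112 CPM against 144, 135 and 134 CPM (-0.21 ± 0.07, edgeR adjusted p = 0.367). Neither Ddi2 nor Nfe2l2 overlapped between the labels, and they lay in opposite directions.

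Of 6 genes of ubiquitin supply and activation, 4 lay higher, with a median of 0.07. Uba1, the main ubiquitin-activating enzyme, stood at 569, 575 and 561 CPM against 449.7, 452 and 549 CPM (0.23 ± 0.10, edgeR adjusted p = 0.419), without overlap. Of the shuttle and p97 genes, Ddi1 had 0 counts, and of the 11 tested, 5 lay higher and 6 lower, with a median of -0.02. Nsfl1c, a p97 cofactor, stood at 80.5, 67.2 and 69.7 CPM against 85.6, 91.9 and 82.8 CPM (-0.26 ± 0.09, edgeR adjusted p = 0.37). Ufd1l, another p97 cofactor, stood at 98.9, 104 and 107 CPM against 89.2, 87.5 and 94.9 CPM (0.19 ± 0.07, edgeR adjusted p = 0.386). These cofactors of 1 enzyme thus lay in opposite directions, each without overlap. Vcp, the gene of p97 itself, stood at 697, 675 and 683 CPM against 509, 562 and 639 CPM (0.26 ± 0.10, edgeR adjusted p = 0.389), also without overlap. Of 12 genes of antigen processing, 6 lay higher and 6 lower, with a median of -0.04. Erap1, a peptide-trimming enzyme, stood at 28.4, 39.8 and 35.8 CPM against 28.6, 29.0 and 24.1 CPM (0.35 ± 0.14, edgeR adjusted p = 0.408). The peptide transporter gene Tap1 stood at 2.83, 4.14 and 4.36 CPM against 2.19, 3.07 and 2.46 CPM (0.55 ± 0.24, edgeR adjusted p = 0.424). Both overlapped between the labels, with Cort 1 the lowest of the libraries labelled corticosterone.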

How the data were processed

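Poly(A) RNA of 6 cultures was sequenced. The authors deposited raw read counts per gene. HISAT2 2.0.5, HTSeq 0.6.1, DESeq2 1.24.0 and mm10 are named in the submitters' processing notes, without roles. For the annotation, the strand setting and filters the entry is: not given in the sources used here. Counts were used as deposited, and no column was unmapped.

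Corticosterone was compared with vehicle with edgeR 4.0.16 (R 4.3.3): TMM scaling, filterByExpr, quasi-likelihood F-test, no replicate block. CPM are TMM-scaled, and SE is the log2 difference over the root of F. edgeR was tested on simulated data. A count of 3, the floor, is 0.100 to 0.126 CPM, and covers counting error alone. Positions and lengths came from GENCODE M21 (GRCm38), which matched all 49 members. P-values set the difference between labels against the spread among libraries of the same label, with the 2 libraries in doubt included.

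Alternatives were DESeq2 1.42.0, limma-voom (limma 3.58.1), other scalings and filters, a replicate block and libraries left out. Members and lists were chosen with earlier results of these data known. Genes given in full were Psmd2, the catalytic and inducible beta genes, the activators, Psmf1, and the 2 members with the smallest edgeR p in classes a, b, c, d and g and in each list. A gene that this rule names is not reported here. Others were chosen after their values were seen.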

Additional observations from a re-analysis of the deposited data

How the results depend on the processing

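The count of members called was 0 under edgeR, DESeq2, limma-voom, RLE and upper-quartile scaling, no count filter, a minimum of 5 CPM in 3 libraries, the replicate block, and each library left out. The count over all genes was 0 with edgeR and 138 with DESeq2, 0 to 29 with 1 library left out (29 without Cort 1 and 11 without Veh 3), and 3 without Cort 2 and Veh 2 together, an alternative added after the values were seen. The cause was not tested. With RLE scaling 2 members, in place of 1, were lower without overlap. The median over the members ran from 0.01 to 0.11 and that over all genes from -0.01 to 0.009. Psmb6 turned to -0.0029 with upper-quartile scaling. With 1 library left out, log2 differences ran from -0.0045 to 0.12 (Psmb5), -0.01 to 0.03 (Psmb6), -0.0035 to 0.10 (Psmb10) and -0.02 to 0.14 (Psma5). With the replicate number as a block, the members' median was 0.07, and 0 members and 0 genes in all were called. No pairing by number was seen: deviations from the group means correlated at -0.153, -0.266 and -0.325 between libraries numbered 1, 2 and 3. The group means are by label, so this cannot settle the pairing while the labels of Cort 2 and Veh 2 are in doubt.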
